A study of Mus musculus with 24 samples.

Results

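Livers from the Trans diet were compared with the pooled livers from the other diets to find genes whose level was set apart in Trans while Cis and Saturated were alike. The comparison holds all 24 livers of the series. The 8 livers of the Trans diet, rich in trans-unsaturated fat from partially hydrogenated soy oil, stood on one side, and the 16 livers of the Cis diet (canola and palm olein oil) and the Saturated diet (cocoa butter) on the other, with 8 livers in each of these diets. Members were chosen by the diet label alone. All mice were males of the C57Bl/6 strain (background C57BL/6J), between 4 and 6 months of age, without a transgene or a knockout, and all had 7 weeks of high-fat feeding, with 45% of the energy from fat, so no liver came from a mouse on a low-fat diet. The 3 fats differ in more than the geometry of a double bond, and the effect of the trans bond and that of the rest of the fat source cannot be told apart.

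Hepatocytes take up dietary fatty acids, burn them in mitochondria and peroxisomes, or store and export them as triglycerides, and they are the main site of urea synthesis, glucose output and plasma protein production. Their cytoskeleton holds intermediate filaments made of keratin 8 and keratin 18, which pair with each other and protect the cell from mechanical and toxic stress. Around them lie stellate cells, which store vitamin A when at rest and produce collagen and smooth muscle actin when activated, Kupffer cells and other macrophages, sinusoidal endothelium and bile duct cells (cholangiocytes).

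RNA of each liver was hybridized to 1 Affymetrix Mouse Gene 1.1 ST array, and the authors' log2 values were used. A signal is given below as the log2 value returned to the linear scale, and a log2 difference as Trans minus the mean of Cis and Saturated, with n = 8, 8 and 8. The medians of the 24 arrays lay between 2.94 and 3.06 on the log2 scale. Correlated with every other array, an array had a median r from 0.975, in Trans replicate 4, to 0.986. All 14 measured hepatocyte markers had a mean signal over 20, as did 0 of 8 markers of striated muscle, 1 of 7 of exocrine pancreas and 1 of 6 of adipocytes. The mice were separate animals, and n counts mice.

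Krt23, which encodes a type I keratin of epithelial cells, rose in Trans and was the single probe set to pass the adjusted threshold. Its signal in the 8 Trans livers ran from 20.9 through a median of 36.0 to 46.4. In the Cis livers it ran from 10.8 through 16.2 to 20.1, and in the Saturated livers from 4.67 through 9.07 to 27.4. All 8 Trans livers lay above every Cis liver, and 6 of the 8 lay above all 16 livers of the other diets. The exception was Saturated replicate 2, at 27.4, which exceeded Trans replicates 2 and 6 (20.9 and 21.7). Mean signals were 34.9 ± 9.55 (SD, n = 8) in Trans, 16.02 ± 3.57 in Cis and 10.99 ± 6.97 in Saturated.

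On the log2 scale Krt23 was 1.45 higher in Trans than in the pooled diets (SE 0.22, limma with Benjamini-Hochberg adjustment over 35556 probe sets, adjusted p = 0.0270), a 2.73-fold difference. It was the 1 called probe set among the 35556 tested, a share of 0.00281%. No probe set was called lower by limma, although an unadjusted p under 0.05 was found on 1307 probe sets that were higher and 1158 that were lower. The level of Krt23 was also 0.69 higher in Cis than in Saturated on the log2 scale, with a 95% confidence interval of 0.17 to 1.21. This is 0.478 of the Trans difference, just under the limit of 0.5 set here for calling Cis and Saturated alike, so Krt23 followed the order Saturated, Cis, Trans rather than setting Trans against an even pair. Its mean signal over all livers, 17.2, was low. The call was lost when any 1 of 10 livers was left out (Trans replicates 1, 3, 4, 5 and 8, Cis replicate 6, and Saturated replicates 1, 3, 5 and 6), with adjusted p up to 0.134. The adjusted p was 0.000168 (limma) when Saturated replicate 2 was left out, after which Trans and the other diets did not overlap. In that run, however, the Cis to Saturated difference was 0.583 of the Trans difference, over the limit of 0.5. That limit was also exceeded without Cis replicate 1 (0.545) or 6 (0.537), and barely without Trans replicate 4 or 8 or Saturated replicate 4 (0.501 each).

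**Figure D1:**
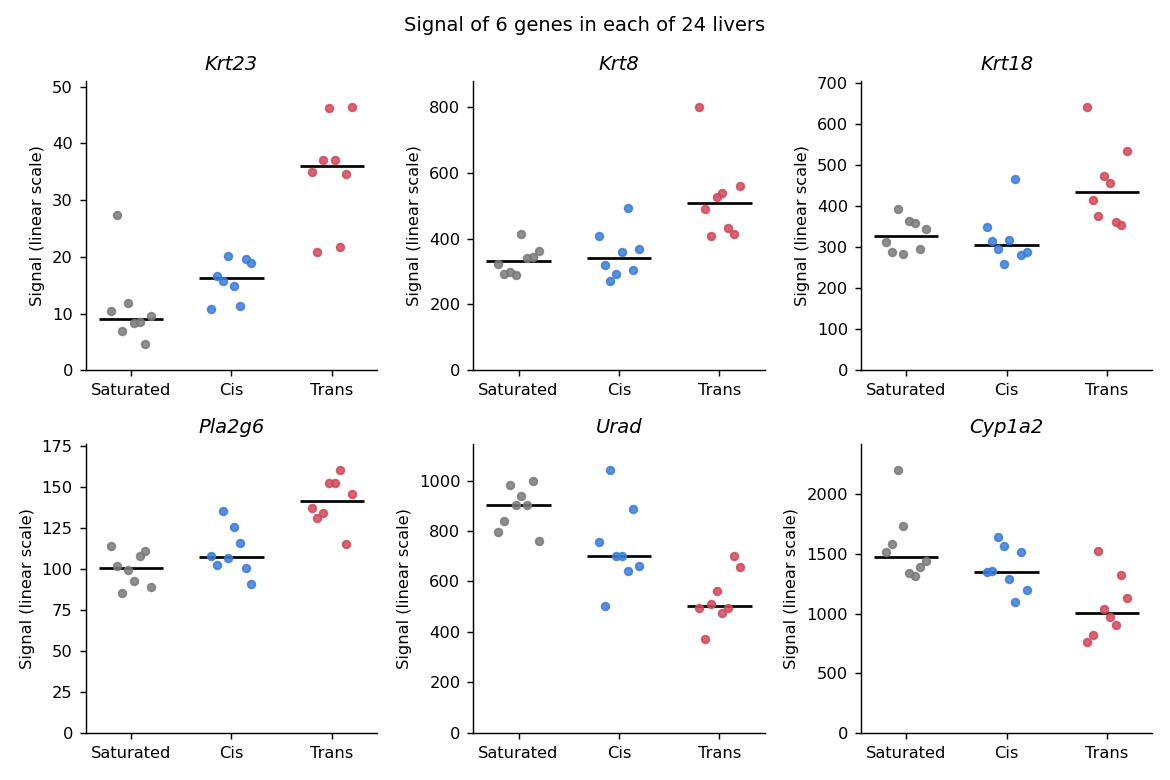
Signal on the linear scale (vertical axis) of 6 genes in each of the 24 livers by diet, 1 point per liver with a bar at the median of 8. All 8 Trans livers lie above all 8 Cis livers for Krt23, where 1 Saturated liver at 27.4 reaches into the Trans range. For the other genes Trans overlaps Cis, and it overlaps Saturated too except for Pla2g6 and Urad.

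Across the array, no probe set separated the 8 Trans livers from the 16 others completely. The largest number of Trans livers beyond all 16 others was 7, in either direction. At least 6 Trans livers lay above all 16 others on 14 probe sets, and at least 6 lay below on 9. Since the array gave 1 call, the genes below were ranked by their unadjusted p and are described as a ranked set rather than as calls. At an unadjusted p under 0.001 there were 83 probe sets, of which 65 (0.183% of those tested, 39 higher and 26 lower in Trans) had a Cis to Saturated difference of less than 0.5 of the Trans difference. The remaining 18 did not meet that limit. With 8 livers in every diet the difference between Cis and Saturated does not enter the Trans contrast, but the limit is a share of the Trans difference and is met more easily where that difference is large. Of the 65 probe sets, 45 are assigned to 1 gene, 16 to none and 4 to several. Of these 45 probe sets 26 were higher and 19 lower, and 30 had a mean signal over 20 (Hspb1 is represented by more than 1 of them). Closest to the limit were Ern1 at 0.492 inside it and Mppe1 at 0.507 outside it.

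**Figure D2:**
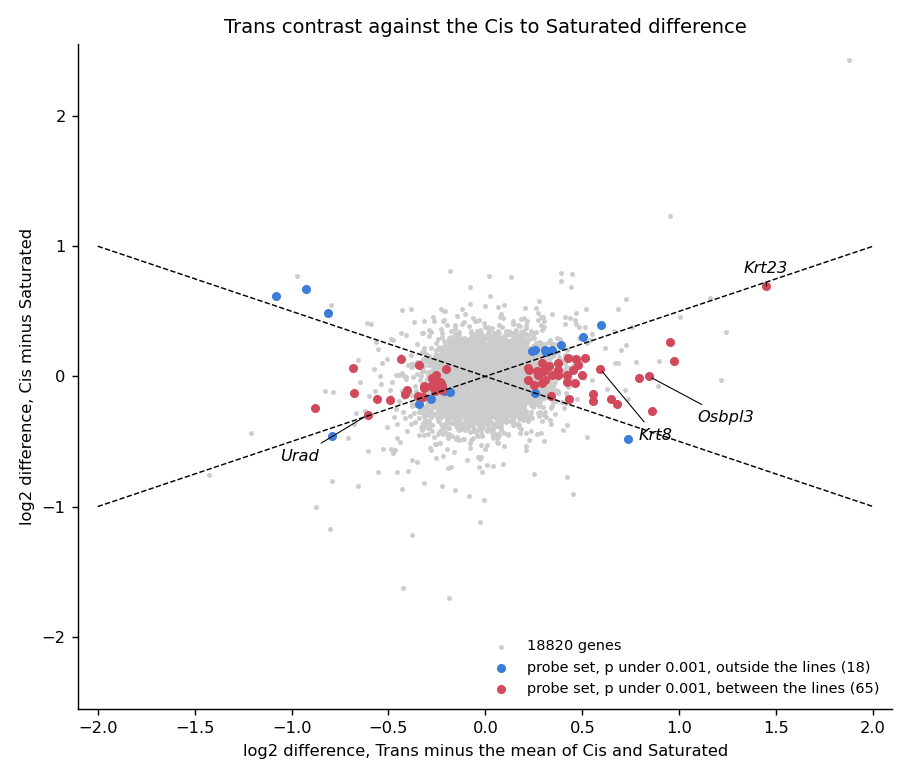
Log2 difference between Trans and the mean of Cis and Saturated (horizontal axis) against that between Cis and Saturated (vertical axis), with 1 grey point per gene. Coloured points are the 83 probe sets with an unadjusted p under 0.001, red (65) where the vertical value is less than 0.5 of the horizontal one (dashed lines) and blue (18) where it is not, and Krt23 lies just inside the upper line.

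The 15 highest ranked genes in each direction, Krt23 included, are described by function. Each gene was ranked by its brightest probe set, and apart from Krt23 a mean signal over 20 was required. Slc23a2 and Polr3gl, at the end of the higher group, did not reach an unadjusted p under 0.001. Atrn is not among the lower genes, although 1 probe set assigned to it met the limit (log2 difference -0.28, limma unadjusted p = 9.99e-05, mean signal 94.1). Fold differences were 1.20 to 2.73 for the 15 higher genes, and for the 15 lower genes the pooled diets exceeded Trans by 1.15 to 1.52 times. Since the genes were chosen by their p in this contrast and by a small difference between Cis and Saturated, their separation in these livers describes the choice and is no support for it.

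A further pair of keratins stood beside Krt23 in the higher group. Krt8, the type II keratin of hepatocytes, had signals of 409 to 800 in Trans (median 509), 270 to 493 in Cis (median 340) and 289 to 414 in Saturated (median 333). Its 8 Trans livers lay above all others except 2, and 4 of them lay above all 16. The log2 difference was 0.59 (SE 0.11, limma adjusted p = 0.128), with 0.56 against Cis and 0.62 against Saturated. Krt18, its type I partner, had signals of 354 to 640 in Trans (median 435), 259 to 465 in Cis (median 304) and 282 to 391 in Saturated (median 328). In this gene 3 Trans livers lay above all 16 others and 4 of the 16 lay above the lowest Trans liver. The log2 difference was 0.46 (SE 0.11, limma adjusted p = 0.307). Trans replicate 1 was the highest of the 24 livers for both Krt8 and Krt18. For neither gene did Cis and Saturated differ by more than 0.06 on the log2 scale.

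Krt8, Krt18 and Krt23 are also used as cholangiocyte markers, so the other markers of these cells were set beside them. Of 9 markers measured, 6 were higher in Trans, and 4 were higher at an unadjusted p under 0.05, against 4.48% of all genes, but 3 of the 4 are the keratins already chosen by rank. The remaining one, Muc1, a membrane mucin, had a log2 difference of 0.34 that rested on Trans replicate 4, with a signal of 15.7 against at most 6.95 in the other Trans livers. Without that liver the difference was 0.14 and the count was 3. Krt19 and Krt7, the keratins most specific to bile ducts in liver, had log2 differences of 0.10 and -0.11 at mean signals of 6.77 and 7.72. Krt19 too was highest in Trans replicate 4 (18.4, next 6.50), and without it the difference was -0.10. Sox9 and Cftr had -0.07 and -0.01, values so near 0 that leaving out 1 liver could turn their sign. The part of bile duct cells in the keratin values was not tested.

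Among genes of lipid and membrane metabolism, Pla2g6 (calcium-independent phospholipase A2) came closest to the threshold after Krt23. It had signals of 115 to 161 in Trans, against 91.0 to 136 in Cis and 85.4 to 114 in Saturated. Of the 8 Trans livers 5 lay above all 16 others, and 3 of the 16 reached above the lowest Trans liver. The log2 difference was 0.43 (SE 0.07, limma adjusted p = 0.0581). It became the 1 called gene, at an adjusted p of 0.0455, when only probe sets with a mean signal over 20 were tested, which leaves out Krt23. Osbpl3, a member of the oxysterol-binding protein family, had the second largest difference of the 15, at 0.84 on the log2 scale (SE 0.20), with median signals of 71.5 in Trans, 40.5 in Cis and 43.1 in Saturated. In this gene 5 Trans livers lay above all 16 others, and the difference was 0.84 against either diet. Slc23a2, a transporter of vitamin C, was 0.43 higher, again by the same amount against either diet.

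Other genes of the higher group act in several processes. Hspb1, a small heat shock protein that binds unfolded proteins and actin filaments, had a log2 difference of 0.55, and all Trans livers exceeded all but 2 of the 16 others. Dnmt3a, which places new methyl groups on DNA, was 0.34 higher, with 1 of the 16 others above the lowest Trans liver. Pde4d, which breaks down cyclic AMP, was 0.30 higher, and the cell surface protein gene Tm4sf1 0.31 higher. For Palmd, 6 of 8 Trans livers lay above all 16 others at a difference of 0.27 on the log2 scale. Pyroxd2, Sh3rf1, Polr3gl and the uncharacterized gene 5031439G07Rik completed the 15, with log2 differences of 0.38, 0.29, 0.27 and 0.37. After Krt23, Pla2g6, Krt8 and Dnmt3a, the adjusted p of these genes was 0.273 or more.

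**Figure D3:**
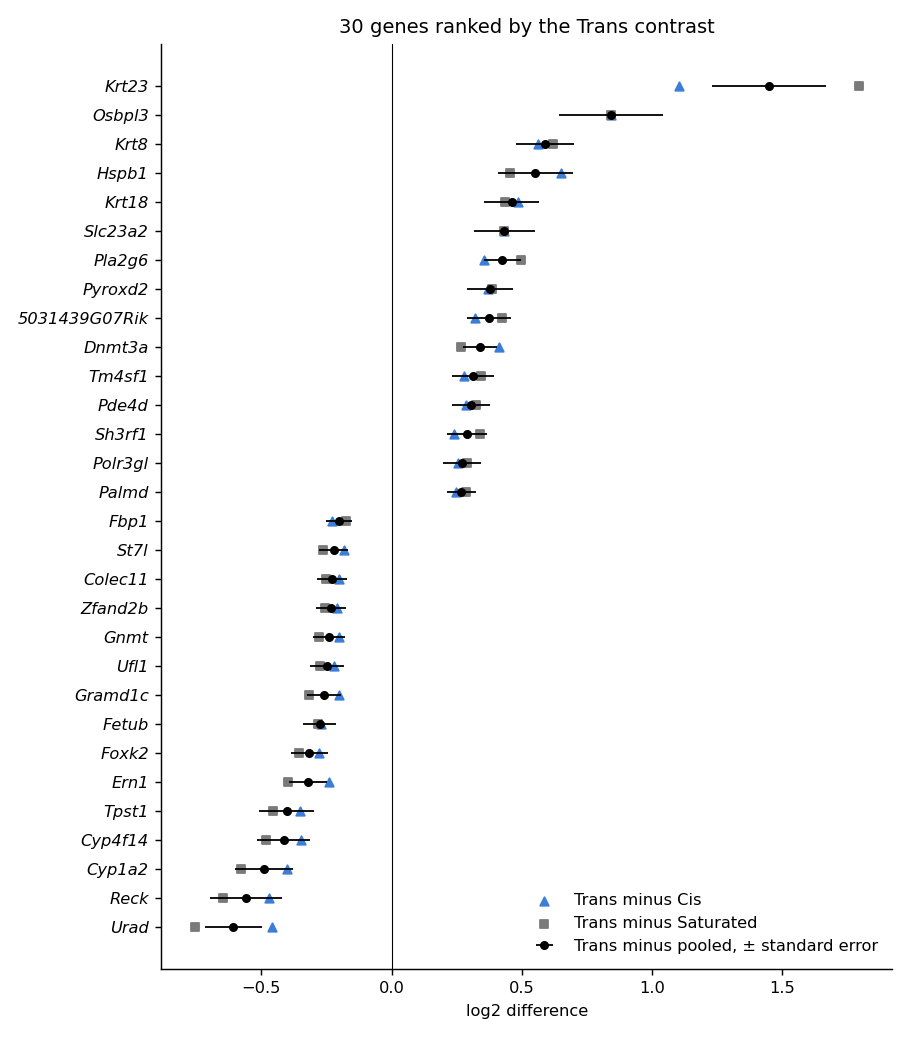
Log2 difference (horizontal axis) of the 30 ranked genes, with a circle and bar for Trans minus the mean of Cis and Saturated ± standard error, a triangle for Trans minus Cis and a square for Trans minus Saturated. Triangle and square are farthest apart in Krt23 and Urad, and their lying on one side of 0 follows from the limit by which the genes were chosen.

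The lower group held liver enzymes and secreted proteins. Urad, an enzyme of uric acid breakdown, ranked first. It had signals of 373 to 700 in Trans (median 504), 504 to 1042 in Cis (median 701) and 759 to 998 in Saturated (median 904). All 8 Trans livers lay below all Saturated livers, whereas 4 of the 8 Cis livers lay below the highest Trans liver. The log2 difference was -0.61 (SE 0.11, limma adjusted p = 0.0869), and that between Cis and Saturated was -0.30 (95% confidence interval -0.56 to -0.04), so Cis lay between the other diets here, as for Krt23.

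Cyp1a2, a cytochrome P450 that oxidizes caffeine and other foreign compounds, had signals of 764 to 1527 in Trans (median 1008), 1094 to 1640 in Cis (median 1354) and 1314 to 2205 in Saturated (median 1479). Of the Trans livers 5 lay below all 16 others, but Trans replicate 3, at 1527, lay within the range of both other diets. The log2 difference was -0.49 (SE 0.11). Cyp4f14, a P450 that hydroxylates fatty acids and leukotrienes, was 0.42 lower on the log2 scale. Fbp1, the gluconeogenic fructose-1,6-bisphosphatase, differed by less, -0.20, but its values were tight, and 6 of 8 Trans livers (1483 to 1808) lay below all 16 others (1689 to 2136). Gnmt, the methyltransferase that uses up S-adenosylmethionine, had a log2 difference of -0.24, and the secreted proteins Fetub (fetuin-B) and Colec11 (a collectin, made in liver mainly by stellate cells) had -0.28 and -0.23.

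Genes of signalling, protein modification and membranes made up the rest. Reck, a membrane-anchored inhibitor of matrix metalloproteinases, had the second largest difference of this group, -0.56, at a mean signal of 22.2. Ern1, the stress sensor IRE1 of the endoplasmic reticulum, was 0.32 lower on the log2 scale and Foxk2, a forkhead transcription factor, was also 0.32 lower. Tpst1, a tyrosine sulphotransferase, differed by -0.40, and 6 of 8 Trans livers lay below all 16 others, while Trans replicate 4, at 55.2, lay above 14 of the 16. Gramd1c, a carrier of sterols between membranes, Ufl1, the ligase of the ubiquitin-like modifier UFM1, Zfand2b and St7l had log2 differences of -0.26, -0.25, -0.23 and -0.22. The adjusted p of the lower genes other than Urad was 0.307 or more.

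Named pathways and cell types were then described by counts of their genes over 33 lists, in which 533 of 595 entries were measured. Over all 18820 genes the median log2 difference was 0.001. At an unadjusted p under 0.05, 3.4% of these genes were lower in Trans beside the 4.48% that were higher, while 2.9% were higher and 2.16% lower with Cis and Saturated alike by the limit above. Apart from Krt23, no gene named from a list passed the adjusted threshold, and the counts below are descriptions to be read beside these shares. In a bulk liver sample, fewer cells of a type and less RNA per cell cannot be told apart.

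Matrix and contractile genes lay on the higher side. All 9 smooth muscle genes were higher in Trans (median log2 difference 0.33), and 5 of them at an unadjusted p under 0.05 with Cis and Saturated alike. These were Acta2 (smooth muscle actin) at 0.90, Tagln at 0.47, Myh11 at 0.44, Cnn1 at 0.34 and Actg2 at 0.33. Only 3 of the 9 smooth muscle genes had a mean signal over 20. Of 27 genes of activated stellate cells and matrix 26 were higher, with a median of 0.20, and 10 at an unadjusted p under 0.05, of which 8 had Cis and Saturated alike. Among them were Pdgfra, a growth factor receptor of these cells, at 0.27, and Vim, the intermediate filament vimentin, at 0.44. Acta2 is in this list as well as in the smooth muscle list and is counted in both. Of 42 collagen chains 35 were higher, with a median of 0.08, and 8 at that threshold. These included Col1a1 at 0.78 and Col3a1 at 0.60, the main fibrillar collagens of scar tissue. Col4a2, a basement membrane chain, was among the 8 at 0.34, but Cis and Saturated were not alike for it. The mean signal was over 20 for 9 of the 42 chains.

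The values of the smooth muscle and activated stellate lists rested on a minority of the Trans livers. Acta2 had a signal of 115 in Trans replicate 1, 111 in Trans replicate 4 and 54.6 in Trans replicate 8, whereas the other 5 Trans livers lay between 17.0 and 27.5, within the range of the 16 others (10.7 to 41.7). Col1a1 ran from 21.2 through 38.4 to 89.3 in Trans, against 15.4 to 47.4 in Cis and 15.7 to 28.7 in Saturated. The mean of the smooth muscle list, relative to the 16 other livers, was 0.92, 1.02 and 0.50 on the log2 scale in Trans replicates 1, 4 and 8, and between -0.06 and 0.17 in the other 5, while the 16 others ran from -0.19 to 0.30. When Trans replicate 1 was left out, the smooth muscle genes at an unadjusted p under 0.05 went from 5 to 2 and those of activated stellate cells from 10 to 5. Leaving out Trans replicate 4 gave 2 and 5, and leaving out Trans replicate 8 gave 2 and 8. The smooth muscle median was then 0.21, 0.21 and 0.29, and Cnn1 was 0.21 without either of Trans replicates 1 and 4. The list mean of the collagen chains was above 0 in 7 of 8 Trans livers. Only Trans replicates 1 and 4, at 0.24 and 0.39, exceeded the 16 others, which ran from -0.10 to 0.14. The rest of the Trans livers lay within that range. Without Trans replicate 1 or 4 the number of collagen genes at an unadjusted p under 0.05 was 7 or 6 in place of 8. The median went to 0.04 without Trans replicate 4. Markers of other cells moved in the same livers. Trans replicate 4 had the highest list mean of all livers for cholangiocytes (0.85), adipocytes (0.71) and striated muscle (0.29), and the lowest array weight, 0.417. Trans replicate 1 had 0.40 for adipocytes, 0.99 for lipid-associated and recruited macrophages and 0.57 for cell cycle genes. Their part in the matrix and contractile values was not tested. By contrast, quiescent stellate cell genes lay on the lower side, with 8 of 11 lower and a median of -0.12. The median was -0.08 without Trans replicate 4. Colec11 (-0.23) and Lrat, which stores vitamin A as retinyl ester, at -0.26, were lower with Cis and Saturated alike. Colec11 is 1 of the genes already chosen by rank and by that limit.

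**Figure D4:**
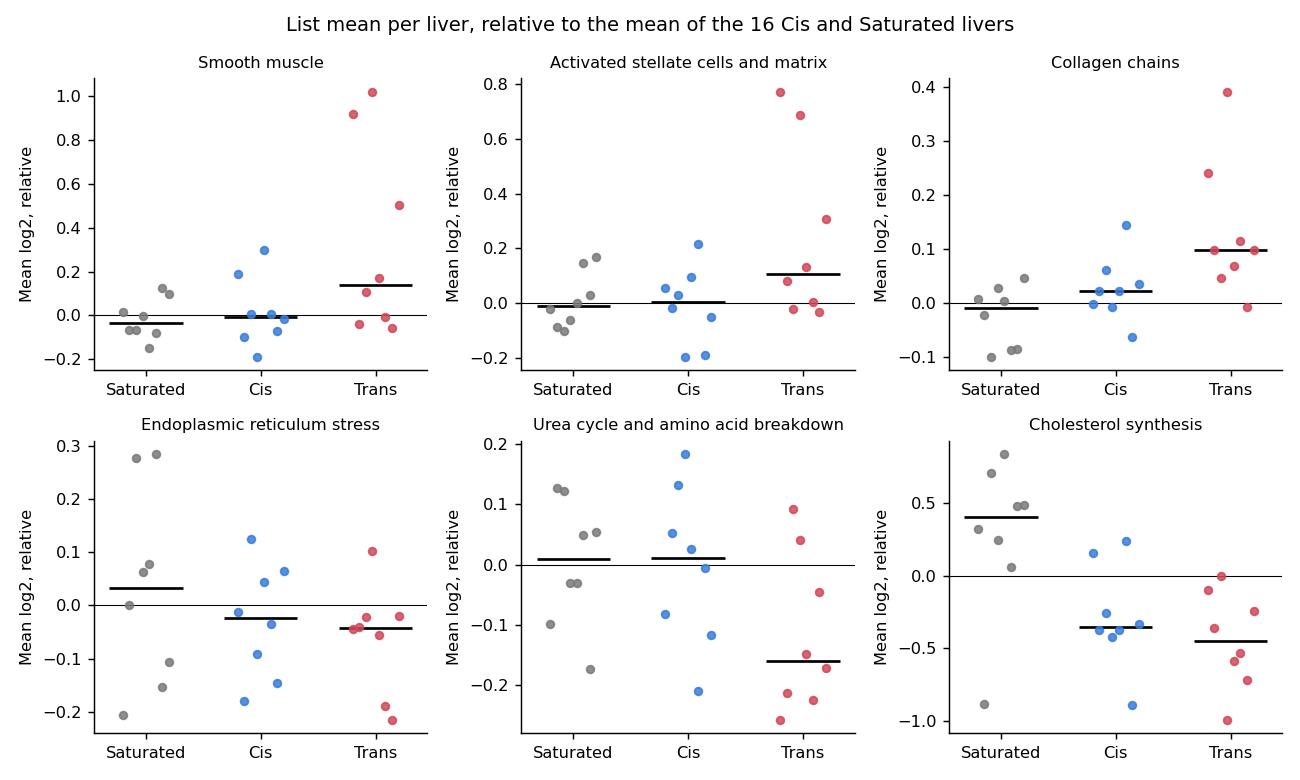
Mean log2 value of 6 gene lists in each liver (vertical axis), relative to the mean of the 16 Cis and Saturated livers, with a bar at the median of each diet. In the smooth muscle and stellate lists 2 Trans livers stand far above the rest and most of the others lie among the Cis and Saturated livers, and in cholesterol synthesis the Cis livers lie beside the Trans livers.

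Macrophage and vessel markers showed smaller counts. Mmp12, a metalloelastase of macrophages, had a log2 difference of 1.24 (SE 0.36, limma adjusted p = 0.475), with signals of 12.4 through 44.9 to 104 in Trans and medians of 14.3 in Cis and 14.6 in Saturated, and 3 Trans livers lay above all 16 others. It was the 1 gene of 12 in the list of lipid-associated and recruited macrophages that met the unadjusted threshold with Cis and Saturated alike. The median of that list was 0.10, and 0.02 without Trans replicate 1, 0.15 without Trans replicate 3 and 0.17 without Trans replicate 7. Of 13 Kupffer cell markers 12 were lower, with a median of -0.13 (-0.06 without Trans replicate 8), and 1, the haemoglobin scavenger receptor Cd163 (-0.43), met that threshold. Of 13 endothelial markers 10 were higher, with a median of 0.10, and Clec4g, a lectin of sinusoidal endothelium, was 0.26 higher. The endothelial genes at the unadjusted threshold numbered 3, and 1 without Trans replicate 1 or 4 and 5 without Cis replicate 3. Of the 14 markers of T, B and NK cells 0 had a mean signal over 20, and the same was found for 9 neutrophil markers.

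Stress and plasma protein genes were mixed. Of 16 genes of the endoplasmic reticulum stress response 11 were lower, with a median of -0.07, and 6 were lower at an unadjusted p under 0.05, of which Dnajb9 (-0.37), Creld2 (-0.29), Hspa5 (-0.19) and Xbp1 (-0.16) had Cis and Saturated alike. Dnajb9 and Hspa5 are chaperones of that compartment, and Xbp1 is the transcript that IRE1 splices. The count of lower genes at that threshold was 4 without Trans replicate 2 or 5, and 7 without Trans replicate 4. Trib3 and Atf3, of the same list, had values of 0.43 and 0.29, the latter 0.16 without Trans replicate 1 and 0.46 without Trans replicate 3. Among 22 acute phase genes 15 were higher, with a median of 0.07, and 5 at the unadjusted threshold (3 without Trans replicate 1 and 8 without Trans replicate 3). At the same threshold 1 of the 22 was lower, and 0 without Trans replicate 2 or 3. The metallothioneins, zinc-binding proteins, had the largest values, 1.22 for Mt2 and 0.89 for Mt1. The signal of Mt2 nevertheless ran from 33.6 to 382 within the Trans livers, against 24.2 to 229 in the 16 others, and 3 Trans livers lay above all 16. Orm2 and Orm3, plasma orosomucoids, were 0.69 and 0.52 higher with Cis and Saturated alike. Hp (haptoglobin) and Saa2 (serum amyloid A) had differences of 0.09 and 0.49, with 95% confidence intervals of -0.07 to 0.24 and -0.28 to 1.26. Saa3 went the other way, at -0.34 (limma adjusted p = 0.669). Its signals were low, at 12.1 to 21.7 in Trans, 11.7 to 26.1 in Cis and 14.2 to 27.8 in Saturated. Single livers moved the value of Hp to between 0.04 (without Trans replicate 1) and 0.14 (without Trans replicate 3), and Saa2 was 0.74 without Trans replicate 3.

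Enzymes of amino acid and glucose metabolism lay on the lower side. Of 19 genes of the urea cycle and amino acid breakdown 18 were lower, with a median of -0.09. The cytosolic aspartate aminotransferase Got1 (-0.49), the urea cycle enzyme Asl (-0.28) and the tyrosine aminotransferase Tat (-0.22) met the unadjusted threshold, all with Cis and Saturated alike. Without Trans replicate 4 the count was 5 in place of 3, and Tat was -0.14 without Trans replicate 6. For Got1 4 Trans livers lay below all 16 others, with a median signal of 713 in Trans, 933 in Cis and 983 in Saturated. Of 15 genes of glucose metabolism 12 were lower, with a median of -0.08, and 4 met the threshold with Cis and Saturated alike. Of these 4, Fbp1 was already chosen by rank. The others were G6pc, which releases free glucose, at -0.54, Tkfc, a kinase of fructose breakdown, at -0.24, and the glycogen phosphorylase Pygl at -0.14. The count was 2 without Trans replicate 1 or Saturated replicate 8, and the median was -0.13 to -0.16 when Trans replicate 1 or 3, Cis replicate 7 or Saturated replicate 2 was left out. The hepatocyte markers, G6pc and Tat of these lists among them, were lower in 13 of 14 genes with a median of -0.05. That marker list also names the urea cycle enzymes Cps1, Ass1 and Arg1 and the gluconeogenic Pck1, so its count is not independent of these pathways.

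**Figure D5:**
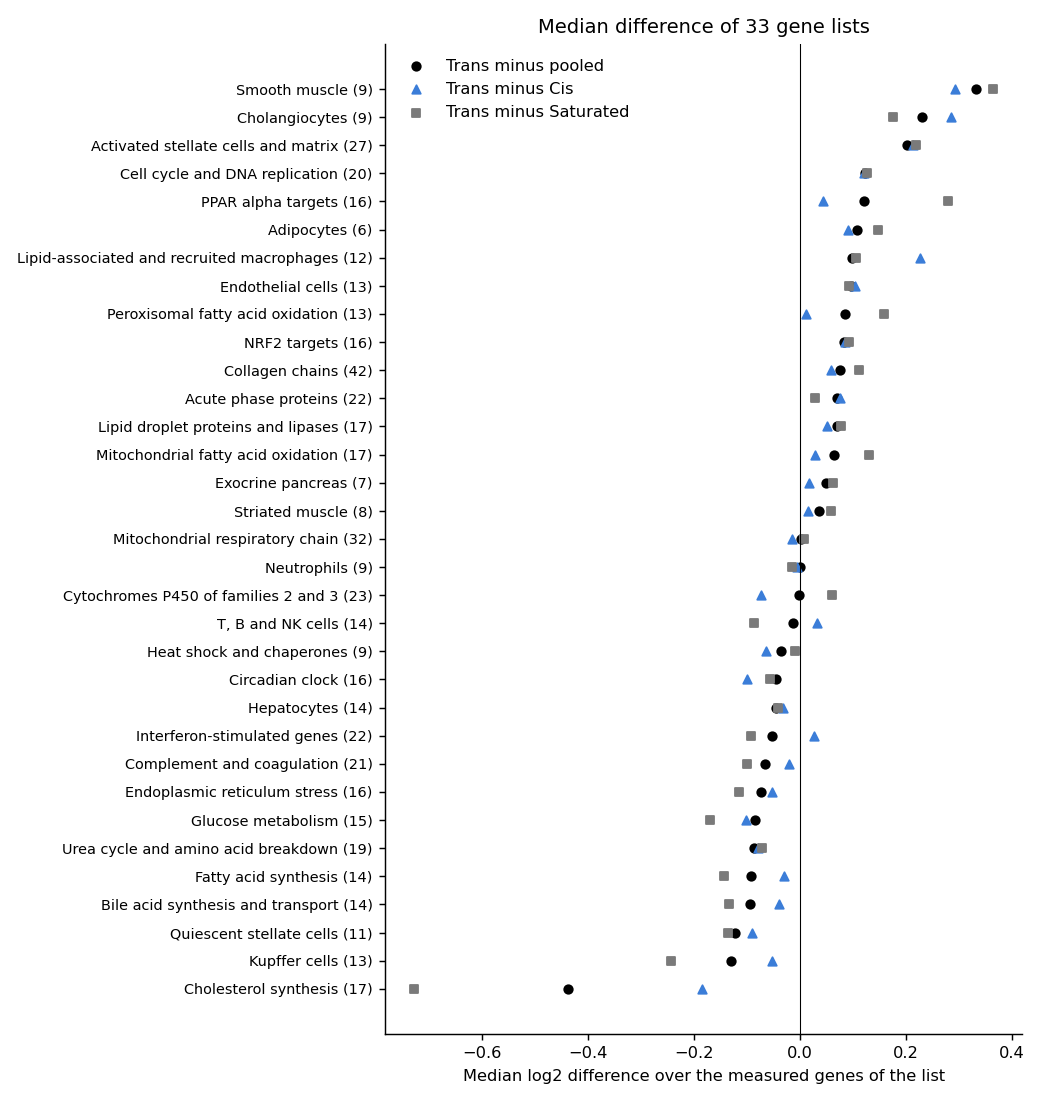
Median log2 difference (horizontal axis) of each of the 33 gene lists, with the number of measured genes in brackets, for Trans minus the pooled diets (circle), Trans minus Cis (triangle) and Trans minus Saturated (square). Smooth muscle genes have the highest median (0.33), and the widest gap between triangle and square is that of cholesterol synthesis.

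Some groups differed between Trans and the pooled diets without being particular to Trans. All 17 measured cholesterol synthesis genes were lower in Trans (median log2 difference -0.44, and -0.37 without Trans replicate 4). Of these, 9 were lower at an unadjusted p under 0.05 (6 without Trans replicate 4 and 14 without Saturated replicate 2). None of the 9 had Cis and Saturated alike, since the list was also 0.57 lower in Cis than in Saturated at the median. Fdft1, the squalene synthase, had a log2 difference of -0.53, made of -0.25 against Cis and -0.80 against Saturated, and Msmo1, a sterol oxidase, had -0.61, made of -0.32 and -0.90. Of 14 fatty acid synthesis genes 0 met the unadjusted threshold in limma, and of 17 genes of mitochondrial fatty acid oxidation 16 were higher with a median of 0.06, and 1, Acadm (0.14), met it without Cis and Saturated being alike. Without Trans replicate 6 that median was 0.04 and the count 0, and without Trans replicates 3 and 4 in turn the count was 3 and 4. Of 13 genes of peroxisomal fatty acid oxidation 9 were higher, with medians of 0.01 against Cis and 0.16 against Saturated. Among them 3 met the unadjusted threshold, whichever liver was left out, and 2 of the 3 had Cis and Saturated alike in the full set of livers. Lipid droplet genes as a list had medians of 0.05 against Cis and 0.08 against Saturated. For a pair of single genes Cis and Saturated were not alike. Cidec, which enlarges lipid droplets, had 0.34 against Cis and 1.57 against Saturated. Hsd17b11, a lipid droplet protein, was 0.31 higher at an unadjusted p of 4.2e-05 (limma), with 0.22 against Cis and 0.41 against Saturated. Of 16 PPARα targets 14 were higher, with a median of 0.12, and 4 at the unadjusted threshold, of which Plin2, the main lipid droplet coat protein of liver, at 0.27, had Cis and Saturated alike. Without Trans replicate 6 the median of that list was 0.05 and the count 2, and without Trans replicate 4 the median was 0.22. Cyp2b9 had the largest difference of the named genes, 1.88, but it was 3.09 against Saturated and 0.66 against Cis. Its signal varied widely within each diet, from 163 to 1356 in Trans, 100 to 1184 in Cis and 5.16 to 912 in Saturated.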

How the data were processed

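Total RNA of 24 livers was measured on Affymetrix Mouse Gene 1.1 ST arrays, and the authors deposited log2 values made by RMA (background correction, quantile normalization and summary per probe set). Probe-level data were not used here, so detection cannot be tested. The genome build is not given in the sources used here. Groups came from the diet in the titles. In R 4.3.3 with limma 3.58.1, 1 linear model with 3 diets (lmFit, eBayes) was fitted to 35556 probe sets, without a filter on signal. The contrast was Trans minus the mean of Cis and Saturated. Tests are two-sided, and a probe set was called at a Benjamini-Hochberg adjusted p under 0.05 over all probe sets. It was set apart in Trans alone when the Cis to Saturated difference was also under 0.5 of the Trans difference. A probe set with 1 gene in GEO's annotation gave that gene its name, and for 1386 genes with several probe sets the brightest was used. Named genes are the called ones, filled to 15 in each direction by unadjusted p among set-apart genes with a mean signal over 20, up to 4 per list by smallest p with those going against the list, and Fdft1, Msmo1, Hp and the Saa genes. In the lists some further genes were named after their values were seen. The comparison and the lists were chosen with earlier results of these data known. Replicate numbers did not pair the livers (24 same-number pairs, correlation of deviations -0.07 to 0.09). Procedures were tested on simulated data. Alternatives were other filters, fits, normalizations and limits, and leaving out each liver.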

Additional observations from a re-analysis of the deposited data

Results flagged for a closer look

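Among 225 groups of 8 livers, of the 75 genes given above as the ranked genes, the genes named with the lists and Hp, Saa2 and Saa3, 19 held a liver that stood far from the other 7 by Dixon's criterion, and chance gives about 1 in 20. In Trans replicate 1 the signal of Krt8 was 799.9, with the next liver at 560.3, and that of Ern1 was 78.69, with the next at 97.33. In Trans replicate 4 Tpst1 was 55.2 (next 38.93), Muc1 15.73 (next 6.947) and Krt19 18.4 (next 6.5). Sh3rf1 was 23.4 in Trans replicate 5, with the next at 26.48. In Cis replicate 6 Hp reached 3778 (next 3176), Saa2 464.7 (next 128.4), Orm2 154.4 (next 65.98), Col3a1 59.26 (next 40.17) and Vim 160.9 (next 108.4). Pde4d was 36.13 in Cis replicate 5 (next 43.26), and Acta2 in that liver was 41.74 (next 22.66). Hspb1 was 25.95 in Cis replicate 7 (next 42.26), and Tkfc in that liver was 477 (next 706.3). Cnn1 was 4.702 in Cis replicate 1 (next 3.666). In the Saturated diet Osbpl3 was 14.53 in replicate 3 (next 31.37), Actg2 5.496 in replicate 4 (next 4.578) and G6pc 714.9 in replicate 2 (next 1146).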

How the results depend on the processing

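Among the 30 ranked genes and Fdft1, Msmo1, Hp, Saa2 and Saa3, none changed direction under any alternative run, and 1131 of their values kept their side of the threshold, 9 passed it and 13 lost it (all 13 of Krt23). The 1 call became 0 in a fit of 2 groups (Krt23 adjusted p = 0.129, limma), 0 with the replicate block, whose numbers do not pair the livers (Krt23 adjusted p = 0.0977), and 0 without Trans replicate 4 and Cis replicate 8 (Krt23 adjusted p = 0.194). In these 3 settings 0 probe sets were set apart in Trans alone. Array weights gave 3 calls and 2 set apart, and testing only probe sets with 1 gene gave 3 and 3 (Krt23, Pla2g6 and Urad). The methods' post hoc test against both diets gave 213 and 202 without adjustment over probe sets, and 0 and 0 after Benjamini-Hochberg. Both pairwise limma tests at an unadjusted p under 0.05 gave 594 and 565. With quantile normalization again 0 were set apart, as with both stricter limits on the Cis to Saturated difference (0 and 0) or with an unadjusted p over 0.05 for it (0), since Krt23 is near the limit. The 65 probe sets at an unadjusted p under 0.001 became 13 with a fold over 1.5 and 33 with a limit of 0.25. Leaving out 1 liver at a time gave 0 to 4 calls, 0 to 4 set apart, 45 to 83 at an unadjusted p under 0.001, and 0 to 1 probe sets without overlap. The setting without the 2 livers and that of probe sets with 1 gene were chosen after seeing the data. List medians changed sign in 6 lists, all with medians within 0.05 of 0 (P450 families 2 and 3, pancreas, heat shock, respiratory chain, neutrophils, and T, B and NK cells), and with only genes of a mean signal over 20 they were 0.29 for collagen chains (9 genes), 0.46 for cholangiocytes (3 genes, Krt8 and Krt18 among them) and -0.24 for pancreas (1 gene, so no median). Over all alternatives the smooth muscle median ran from 0.12 to 0.38, beside 0.33 in the main fit. Signal limits what can be read from Krt23 and from most collagen and smooth muscle genes, whose mean signal was under 20.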
